A study of Mus musculus with 20 samples.

Results

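The 5 transcription factor genes that set up and keep the microglia lineage, Spi1, Irf8, Runx1, Mef2c and Sall1, were examined for DNA methylation in mouse brain. Their CpGs were those listed within the mm10 bounds of each gene or up to 1000 bp outside them, which gave 647 of 1151198 CpGs at 13 months and 685 of 1234455 at 3 months, with 645 of 1132579 listed at both ages. The 5 genes stand among 25723 annotated gene regions with at least 3 CpGs at both ages. Methylation came from bisulfite sequencing of the CpG-rich part of the genome (RRBS), as percent per CpG, in DNA of brain homogenate enriched for microglia.

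HEM mice carried an X-linked transgene that made full-length human wild-type α-synuclein in excess under the murine Thy-1 promoter, a promoter used to drive expression in neurons. WT mice lacked it, and the labels give the B6D2F1/J background for all groups, though 1 HEM library of 13 months (replicate 3) has no strain label. There were 8 HEM and 4 WT libraries of 13 months, and 4 HEM and 4 WT libraries of 3 months. The series text speaks of 3 WT mice of 3 months, whereas 4 libraries bear that label and were used. The ages were deposited as separate sets, so age and set cannot be told apart. The files hold no read counts, so depth is unknown, and in bulk DNA fewer microglia and another level per cell cannot be told apart.

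Spi1 encodes PU.1, the ETS-family factor on which the myeloid lineage depends, and Irf8 encodes an interferon regulatory factor that binds DNA together with PU.1. Runx1 encodes a runt-domain factor of blood formation that is active in the embryonic progenitors of microglia, and it is transcribed from a distal and a proximal start. Mef2c, a MADS-box factor, works in neurons and restrains inflammatory responses of microglia, while Sall1, a zinc-finger repressor, keeps microglia in their resting identity. CpG-rich stretches at gene starts are usually unmethylated, whereas CpGs inside genes and in enhancers are methylated to a degree that differs between cell types.

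Start windows of 250 bases before and 50 bases from an annotated start, taken from RefSeq (GRCm38.p6, the assembly of mm10), are shown because the measured CpGs in them carry the low methylation described next, and the distal Runx1 window because it is so poor in CG. Capitals mark the CG pairs with a listed position, and the sequences read 5′ to 3′ on the strand of the gene.
Irf8 first start, chr8:120736108-120736407, plus strand: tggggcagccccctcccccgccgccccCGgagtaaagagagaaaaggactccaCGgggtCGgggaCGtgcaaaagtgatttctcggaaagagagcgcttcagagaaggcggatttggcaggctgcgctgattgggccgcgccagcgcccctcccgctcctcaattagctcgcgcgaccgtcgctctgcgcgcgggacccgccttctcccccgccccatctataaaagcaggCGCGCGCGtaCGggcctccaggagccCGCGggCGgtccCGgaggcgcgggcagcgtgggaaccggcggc
Runx1 proximal start, chr16:92697280-92697579, minus strand: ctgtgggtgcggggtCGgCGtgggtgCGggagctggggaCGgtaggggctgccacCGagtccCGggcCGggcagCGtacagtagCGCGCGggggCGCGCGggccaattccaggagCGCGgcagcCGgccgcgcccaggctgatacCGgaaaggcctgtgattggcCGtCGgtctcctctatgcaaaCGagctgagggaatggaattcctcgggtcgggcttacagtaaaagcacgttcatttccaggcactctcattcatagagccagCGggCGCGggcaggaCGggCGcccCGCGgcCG
Runx1 distal start, chr16:92826025-92826324, minus strand: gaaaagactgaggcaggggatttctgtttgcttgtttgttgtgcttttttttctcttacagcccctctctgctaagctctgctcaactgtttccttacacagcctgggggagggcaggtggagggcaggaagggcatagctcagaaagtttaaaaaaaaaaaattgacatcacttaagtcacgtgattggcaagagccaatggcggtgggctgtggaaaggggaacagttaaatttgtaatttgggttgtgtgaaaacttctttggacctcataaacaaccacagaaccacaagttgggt
Sall1 middle start, chr8:89043463-89043762, minus strand: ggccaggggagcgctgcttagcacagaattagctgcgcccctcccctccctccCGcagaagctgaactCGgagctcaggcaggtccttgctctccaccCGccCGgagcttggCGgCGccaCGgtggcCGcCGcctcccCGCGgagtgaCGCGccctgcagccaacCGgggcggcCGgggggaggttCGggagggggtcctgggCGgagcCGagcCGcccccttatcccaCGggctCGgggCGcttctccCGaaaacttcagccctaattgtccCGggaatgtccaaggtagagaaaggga
Mef2c middle start, chr13:83523406-83523705, plus strand: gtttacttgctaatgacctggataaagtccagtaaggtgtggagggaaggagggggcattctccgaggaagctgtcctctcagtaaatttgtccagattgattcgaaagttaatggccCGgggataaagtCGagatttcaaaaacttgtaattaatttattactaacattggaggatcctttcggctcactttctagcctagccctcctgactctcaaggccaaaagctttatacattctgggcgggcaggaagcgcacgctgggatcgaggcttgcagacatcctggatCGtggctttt
The Irf8 window held 38 CG pairs, of which 13 were measured, and no single value there exceeded 4.65% in any library. The proximal Runx1 window held 35, of which 29 were measured, while the distal one held 2 and neither was measured. The Sall1 window held 27, of which 24 were measured, and the Mef2c window held 10, of which 3 were measured. Group means over the measured positions of these windows lay between 0.0565% (Irf8, HEM of 3 months) and 2.02% (Mef2c, WT of 13 months). Of the RefSeq windows, 93% held fewer CG pairs than the proximal window of Runx1 and 14.1% fewer than its distal one. Over all windows, 99.9% of the listed positions fell on the C or G of a CG, as they should where files and sequences share a build.

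The genes were sampled very unequally and stood at different levels. Spi1 (chr2:91082374-91115759) had 22 CpGs listed at both ages, all inside the gene, and 18 of them averaged between 20% and 80%. Irf8 (chr8:120736358-120756694) had 123, of which 38 averaged under 5%, 55 between 20% and 80% and 24 over 80%. Runx1 (chr16:92601466-92826074) had 276, with 110 under 5%, 84 between 20% and 80% and 56 over 80%. Mef2c (chr13:83504017-83667079) had 24 CpGs, or 0.145 per kb of its region, so little of its body was sampled. Of the 24, 24 averaged under 5%. Sall1 (chr8:89027242-89044162) had 200, with 177 under 5%, and 171 of these CpGs also lie in the overlapping non-coding gene Gm3134, so that their values belong to both. Over the whole genome 56% of the CpGs averaged under 5% and 16.7% between 20% and 80%. The gene table used here gives bounds and no exons, so positions are given from the ends and starts of genes.

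**Figure D1:**
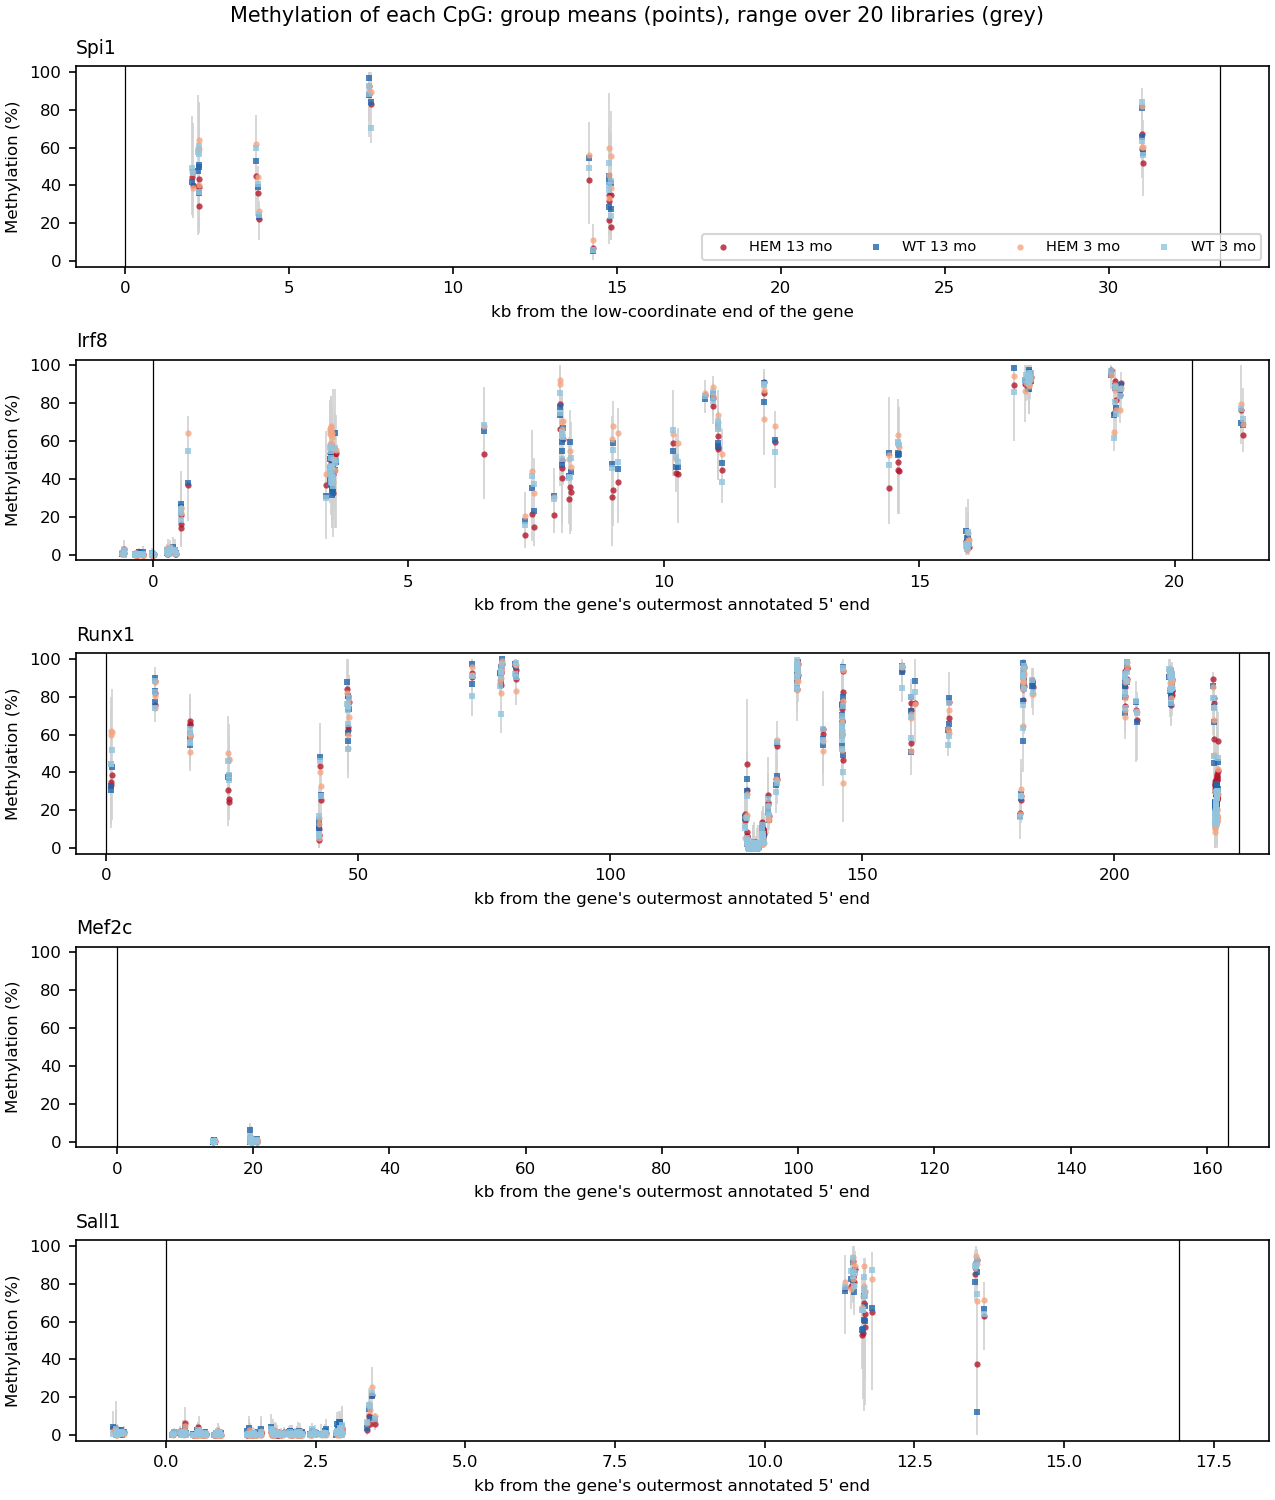
Methylation (percent) of each CpG listed at both ages, against its distance in kb from the outermost annotated 5′ end of the gene, or from the low-coordinate end for Spi1. Points are the means of the 4 groups and grey bars span the 20 libraries. CpGs at the starts of Irf8, Mef2c and Sall1 and at the proximal start of Runx1 lie near 0, and most CpGs of Spi1 (18 of 22) lie between 20% and 80% with wide bars.

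Neighbouring CpGs were also read as runs of at least 3 with gaps of at most 200 bp, numbered within a gene from its low-coordinate end, and the 5 genes held 49 of them. In Irf8 the run over the first start (run 1, 25 CpGs, from 598 bases before the start to 20 bases after it) was nearly free of methylation. Its means were 0.353 ± 0.144% for HEM and 0.378 ± 0.104% for WT at 13 months (SD over 8 and 4 libraries), and 0.242 ± 0.100% for HEM and 0.239 ± 0.101% for WT at 3 months (SD over 4 libraries each). Run 2, from 284 to 693 bases after that start, averaged 7.95% over the 20 libraries, and runs 3 to 9 inside the gene averaged between 24.1% and 69.5%. Run 10 (6 CpGs, chr8:120752265-120752334) stood at 6.51%, between neighbours at 50.7% and 92.8%. The last run, run 12, averaged 84.9%.

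In Runx1 the run over the proximal start (run 15, 82 CpGs, from 539 bases before to 503 bases after it) averaged 0.467% over the 20 libraries. The run nearest to the distal start (run 24, 3 CpGs, 928 to 1115 bases into the gene) averaged 43%, with libraries between 12.8% and 74.2%. Of the 24 runs of Runx1, 8 averaged over 80% and 2 under 5%. Both runs of Mef2c averaged under 1%, at 0.281% and 0.709%. In Sall1 the 3 runs around the starts averaged 0.955%, 0.773% and 1.57%, and the 2 runs farthest from them averaged 76% and 75.8%. The 5 runs of Spi1 averaged between 35.9% and 88%.

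The first comparison concerned α-synuclein overexpression at 13 months, and none of the 5 genes separated HEM from WT. Over its whole region Spi1 lay between 34.5% and 57.5% (median 41.8%) in the 8 HEM libraries, against 60.9%, 48.1%, 36.8% and 55.4% in the 4 WT libraries. The highest and 1 low value were both in WT. Irf8 lay between 34.2% and 43.7% (median 37.3%) in HEM, against 43.8%, 42.3%, 33.7% and 40.5% in WT, with the lowest library of all in WT. Runx1 lay between 31.3% and 37.4% (median 35.3%) in HEM, against 32.5%, 34.9%, 35.7% and 31.4% in WT, well inside each other. Mef2c lay between 0.107% and 1.91% (median 0.531%) in HEM, against 0.464%, 0.241%, 1.19% and 0.460% in WT. Sall1 lay between 6.30% and 9.39% (median 8.31%) in HEM, against 8.76%, 8.54%, 7.39% and 7.37% in WT. HEM and WT overlapped in all 5 genes.

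A region was called where limma gave an adjusted p under 0.05 and the difference was at least 5 points. Among the 4 members with a mean between 5% and 95%, 0 were called at 13 months, as 0 of 19451 regions were (0%), and 0 had an unadjusted p under 0.05 (4.05% of all regions). The HEM minus WT difference of Spi1 was -6.02 points (95% interval -17.7 to 5.68), with a limma adjusted p of 1 and a two-sided exact permutation p of 0.307. Irf8 differed by -1.84 points (95% interval -6.93 to 3.25), Runx1 by 1.10 points (95% interval -1.69 to 3.89) and Sall1 by 0.0754 points (95% interval -1.21 to 1.36), with exact permutation p of 0.465, 0.416 and 0.895. Mef2c, which is below the lower limit on the mean, differed by 0.0653 points (exact permutation p = 0.875). The smallest p that 8 against 4 libraries allow is 0.00202, and the interval of Spi1 leaves room for differences of many points.

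At 3 months HEM and WT overlapped again in all 5 genes. Spi1 stood at 61.8%, 62.5%, 52.2% and 47% in HEM, against 58.4%, 60.7%, 49.1% and 47.8% in WT. Irf8 stood at 48%, 46.4%, 42% and 42.4% in HEM, against 42.6%, 44.7%, 39.9% and 38.1% in WT, so that the 2 highest libraries were HEM and the 2 lowest WT. Runx1 stood at 32.4%, 31%, 32.7% and 32.9% in HEM, against 32.1%, 32.7%, 34.8% and 32.1% in WT. Mef2c stood at 0.646%, 0.446%, 0.364% and 0.242% in HEM, against 0.624%, 0.552%, 0.101% and 0.216% in WT. Sall1 stood at 9.52%, 8.99%, 8.60% and 8.83% in HEM, against 8.83%, 9.65%, 8.77% and 8% in WT.

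Of 4 tested members 0 were called at 3 months by limma, as 0 of 20189 regions were (0%), and 0 had an unadjusted p under 0.05 (4.03% of all regions). Irf8 differed by 3.37 points (95% interval -1.15 to 7.89), with a limma adjusted p of 1 and an exact permutation p of 0.200. Spi1 differed by 1.88 points (95% interval -8.79 to 12.6), Runx1 by -0.661 points (95% interval -2.42 to 1.10) and Sall1 by 0.175 points (95% interval -0.875 to 1.22), with exact permutation p of 0.629, 0.514 and 0.714. Mef2c differed by 0.0515 points (exact permutation p = 0.743). The smallest p that 4 against 4 libraries allow is 0.0286.

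**Figure D2:**
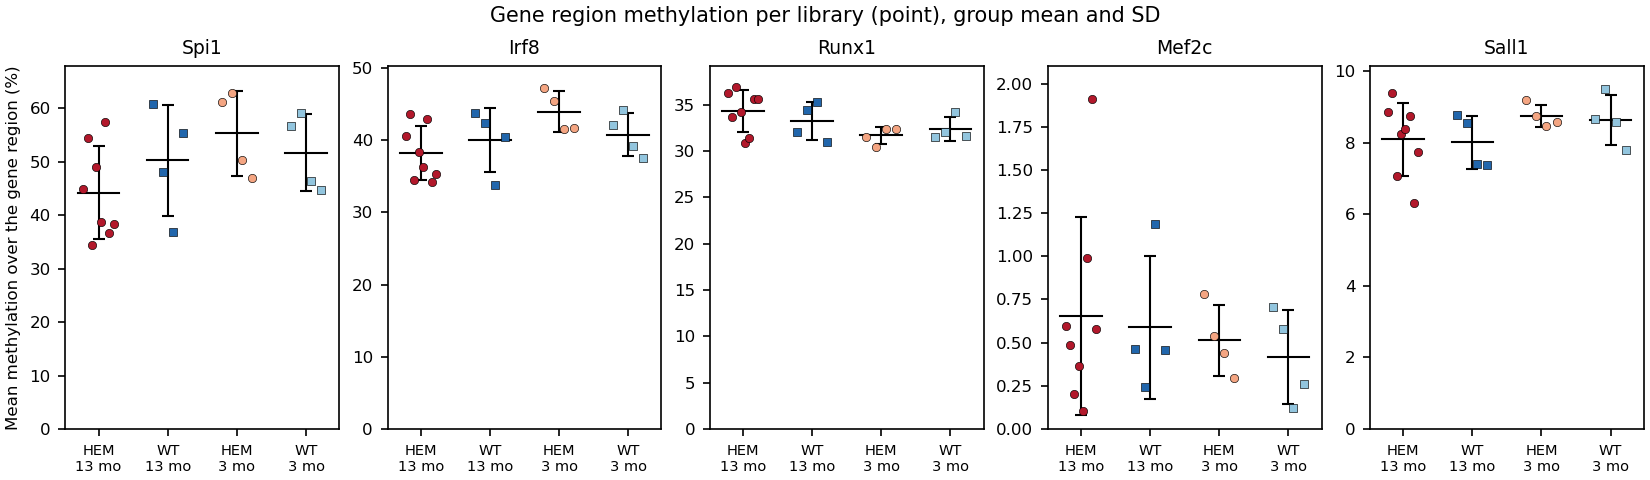
Mean methylation (percent) over the CpGs of each gene region listed at both ages, 1 point per library, with the group mean and SD, for HEM and WT of 13 months and HEM and WT of 3 months. The scale starts at 0 and differs between panels, and the groups overlap in every panel. Spi1 spreads most, from 34.5% to 62.9%, and Mef2c stays under 2%.

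For single CpGs a call needed at least 10 points. At 13 months 0 of 291 tested member CpGs were called by limma, against 4 of 453891 genome-wide (0.000881%), and 10 had an unadjusted p under 0.05, or 3.44%, against 5.82% genome-wide. Without WT replicate 6 it was 26 of 290, against 7.53% genome-wide. The CpG of smallest p is given for each gene, picked among 22 tested in Spi1, 162 in Runx1 and 81 in Irf8. The share of all CpGs without overlap between HEM and WT was not counted, so a lack of overlap in these is a description only. In Spi1 it was chr2:91113404, between 59.5% and 75% (median 67.5%) in HEM, against 76%, 86.4%, 79.2% and 83.1% in WT. Every HEM library lay below every WT library there, and the difference of -13.8 points had a limma adjusted p of 0.771. In Runx1 it was chr16:92644311, between 69.6% and 88.2% (median 79%) in HEM, against 65.3%, 56.2%, 64.3% and 40.0% in WT. Every HEM library lay above every WT library there, and the difference of 21.9 points had a limma adjusted p of 0.675. In Irf8 it was chr8:120753208, towards the 3′ end, between 77.9% and 98.3% (median 91.6%) in HEM, against 95.5%, 100%, 100% and 100% in WT, with overlap (difference -9.38 points, limma adjusted p = 0.539).

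At 3 months 0 of 288 tested member CpGs were called by limma, as 0 of 492283 were genome-wide (0%). An unadjusted p under 0.05 was found for 20, or 6.94%, against 4.53% genome-wide, and 15 of them were higher in HEM (2.28% of all CpGs). The count was 11 without WT replicate 5 (4.32% genome-wide) and 12 without HEM replicate 1 (4.21% genome-wide). In Irf8 10 of 86 tested CpGs had such a p, and 9 of these were higher in HEM. As neighbouring CpGs share reads, these CpGs are not independent and do not count as separate evidence. Its CpG of smallest p, chr8:120739862, stood at 72.3%, 67.6%, 43.5% and 74.4% in HEM, against 31%, 42.3%, 34% and 43.9% in WT (limma adjusted p = 0.985). One HEM library lay just below the highest WT library. That CpG is in run 3 of Irf8 (20 CpGs, chr8:120739755-120739947), which stood at 59.5%, 58%, 47.8% and 61.5% in HEM, against 45.5%, 57.8%, 38.6% and 39.7% in WT. The run differed by 11.3 points (95% interval 1.03 to 21.6), with a limma adjusted p of 0.992 and an exact permutation p of 0.0571.

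The CpGs of smallest p at 3 months in Runx1 and Sall1 did not overlap between HEM and WT. They were picked among 151 tested CpGs in Runx1 and 27 in Sall1. The share of all CpGs without overlap was not counted, so this lack of overlap is a description only. In Runx1 chr16:92644140 stood at 90.7%, 90.4%, 95.5% and 84.3% in HEM, against 76.6%, 73.4%, 80.9% and 72.5% in WT. In Sall1 chr8:89031900 stood at 92.3%, 100%, 94.1% and 94.7% in HEM, against 78.4%, 90.2%, 81.2% and 82.6% in WT. In Spi1 chr2:91116055, past the high-coordinate end of the gene and not listed at 13 months, stood at 81.8%, 35.5%, 76.1% and 40.0% in HEM, against 79.8%, 80%, 86.7% and 94.4% in WT, with overlap. The limma adjusted p of all 3 was 0.985.

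Runs and tiles showed no called genotype difference either. Of 41 member runs tested at 13 months 0 were called by limma, as 0 of 70842 were genome-wide (0%), and 2 had an unadjusted p under 0.05 (5.53% genome-wide). One was run 5 of Spi1 (chr2:91113398-91113431), between 49.7% and 71.9% (median 60.1%) in HEM, against 65.5%, 71.5%, 66.3% and 68.7% in WT, a difference of -8.40 points. The other was run 2 of Runx1 (chr16:92606402-92606552), between 64.1% and 82% (median 76.9%) in HEM, against 66.1%, 66.5%, 74.4% and 65.1% in WT, a difference of 7.73 points. HEM and WT overlapped in both runs, with the same limma adjusted p, 0.887. At 3 months 0 of 40 member runs were called, as 0 of 70696 were genome-wide (0%), and 1, run 3 of Irf8, had an unadjusted p under 0.05 (4.41% genome-wide). Tiles of 1000 bp gave 0 calls among 41 member tiles at 13 months and 42 at 3 months, as 0 of 71077 and 0 of 78139 tiles did genome-wide (0% each), with 1 unadjusted limma p under 0.05 at each age (5.52% and 4.5% genome-wide).

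The second question was age. In HEM, Irf8 averaged 38.2 ± 3.78% at 13 months and 44 ± 2.84% at 3 months over the CpGs listed at both ages (SD over 8 and 4 libraries), a difference of -5.72 points (95% interval -10.2 to -1.22) with a limma adjusted p of 0.322. The 13-month libraries lay between 34.2% and 43.7% (median 37.3%), against 47.2%, 45.5%, 41.5% and 41.7% at 3 months, so the ages overlapped. The exact permutation p of 0.0283 passed 0.05 and no longer did without replicate 13 of 13 months (0.0515), replicate 1 of 3 months (0.0909) or replicate 2 of 3 months (0.0788). Spi1 averaged 44.3 ± 8.64% at 13 months and 55.3 ± 7.90% at 3 months, a difference of -11.1 points (95% interval -21.8 to -0.351) (limma adjusted p = 0.371, exact permutation p = 0.0626). Runx1 stood the other way, at 34.3 ± 2.23% at 13 months and 31.7 ± 0.927% at 3 months, a difference of 2.63 points (95% interval 0.129 to 5.13) (limma adjusted p = 0.377, exact permutation p = 0.0566). Sall1 differed by -0.650 points and Mef2c by 0.140 points (exact permutation p = 0.253 and 0.721).

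Of 4 tested members 0 were called between ages in HEM by limma, as 0 of 19319 regions were (0%). Irf8, Spi1 and Runx1 had an unadjusted limma p under 0.05, where 12.9% of all regions did. That count of 3 was 0 without replicate 1 of 3 months (7.60% of all regions) and 0 without replicate 2 of 3 months (7.24%). It was 1 when replicate 1, 6, 11 or 13 of 13 months was left out singly (10.9%, 10.2%, 10.1% and 10.2% of all regions). With the mean of the microglia markers as a covariate it was 1 (6.58% of all regions). The share over all regions thus fell in each of these settings as well. In WT 0 of 4 were called, against 1 of 19292 (0.00518%), and 0 had an unadjusted p under 0.05 (4.98% genome-wide). The 13 minus 3 months difference in WT was -1.46 points for Spi1, -0.693 for Irf8, 0.859 for Runx1, 0.172 for Mef2c and -0.616 for Sall1, with exact permutation p between 0.257 and 0.886. The age difference of HEM minus that of WT was -5.02 points (95% interval -11.9 to 1.89) for Irf8 and -9.60 points (95% interval -26 to 6.83) for Spi1, with limma adjusted p of 0.903 and 0.910. It was 1.77 points (95% interval -1.78 to 5.32) for Runx1 and -0.0344 points (95% interval -1.67 to 1.60) for Sall1. This interaction was called in 0 of 4 members, as in 0 of 19312 regions (0%), and 0 had an unadjusted limma p under 0.05 (5.18% genome-wide).

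Between ages in HEM, 9 of 11 tested Irf8 runs were lower at 13 months, 6 of them at an unadjusted p under 0.05, and the last run was higher. Of all runs 58.8% were higher at 13 months and 13.7% had such a p in either direction. Run 6 (3 CpGs, chr8:120745335-120745456) lay between 14.4% and 58.3% (median 34.8%) at 13 months, against 74.8%, 71.8%, 47% and 64% at 3 months. The ages overlapped, and the difference of -30.0 points (95% interval -47.2 to -12.8) had a limma adjusted p of 0.196 and an exact permutation p of 0.00606. Run 4 (3 CpGs, chr8:120743638-120743824) lay between 5.64% and 29% (median 13%) at 13 months, against 47.1%, 42.5%, 24.2% and 15.8% at 3 months (limma adjusted p = 0.259). Run 12 (7 CpGs, chr8:120755114-120755297) lay between 85.3% and 89.1% (median 86.8%) at 13 months, against 81.6%, 81.5%, 82.6% and 84.2% at 3 months. The ages did not overlap in run 12, and the difference of 4.60 points (95% interval 2.03 to 7.16) had a limma adjusted p of 0.259 and an exact permutation p of 0.00202. How many of all runs lacked overlap between these ages was not counted. Runs 6 and 12 were named for their small p in this comparison. Their exact permutation p were not adjusted over the 41 member runs tested. In WT run 6 averaged 50.6 ± 15.9% at 13 months and 50.2 ± 12.9% at 3 months, and run 12 averaged 85.7 ± 2.53% at 13 months and 82.1 ± 4.81% at 3 months (SD over 4 libraries each). The interaction of run 6 was -30.4 points (95% interval -56.7 to -4.06), with a limma adjusted p of 0.748.

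Runx1 runs differed in both directions between ages in HEM, 15 of 22 being higher at 13 months, where 58.8% of all runs were. Run 1 (30 CpGs, chr16:92605564-92606118, towards the 3′ end) lay between 15.3% and 48.2% (median 37.7%) at 13 months, against 12.7%, 9.74%, 23.8% and 22% at 3 months (difference 16 points, limma adjusted p = 0.285). Run 14 (18 CpGs, 1248 to 1642 bases past the proximal start) lay between 5.42% and 16.2% (median 8.24%) at 13 months, against 3.99%, 1.96%, 5.46% and 4.67% at 3 months (difference 5.35 points, limma adjusted p = 0.211). Run 21 (3 CpGs, chr16:92801798-92801902) lay the other way, between 19.6% and 39.4% (median 24.8%) at 13 months, against 63.8%, 58.5%, 36% and 33.4% at 3 months (difference -20.8 points, limma adjusted p = 0.208). So did run 24 near the distal start, between 12.8% and 71.7% (median 34.5%) at 13 months, against 72.4%, 74.2%, 57.8% and 40.0% at 3 months (difference -25.3 points, limma adjusted p = 0.291). The ages overlapped in these 4 runs. In Spi1 run 4 (5 CpGs, chr2:91097121-91097196) lay between 18.2% and 40.2% (median 24.9%) at 13 months, against 51.3%, 68%, 33.5% and 33.4% at 3 months, again with overlap (difference -18.3 points, limma adjusted p = 0.260).

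**Figure D3:**
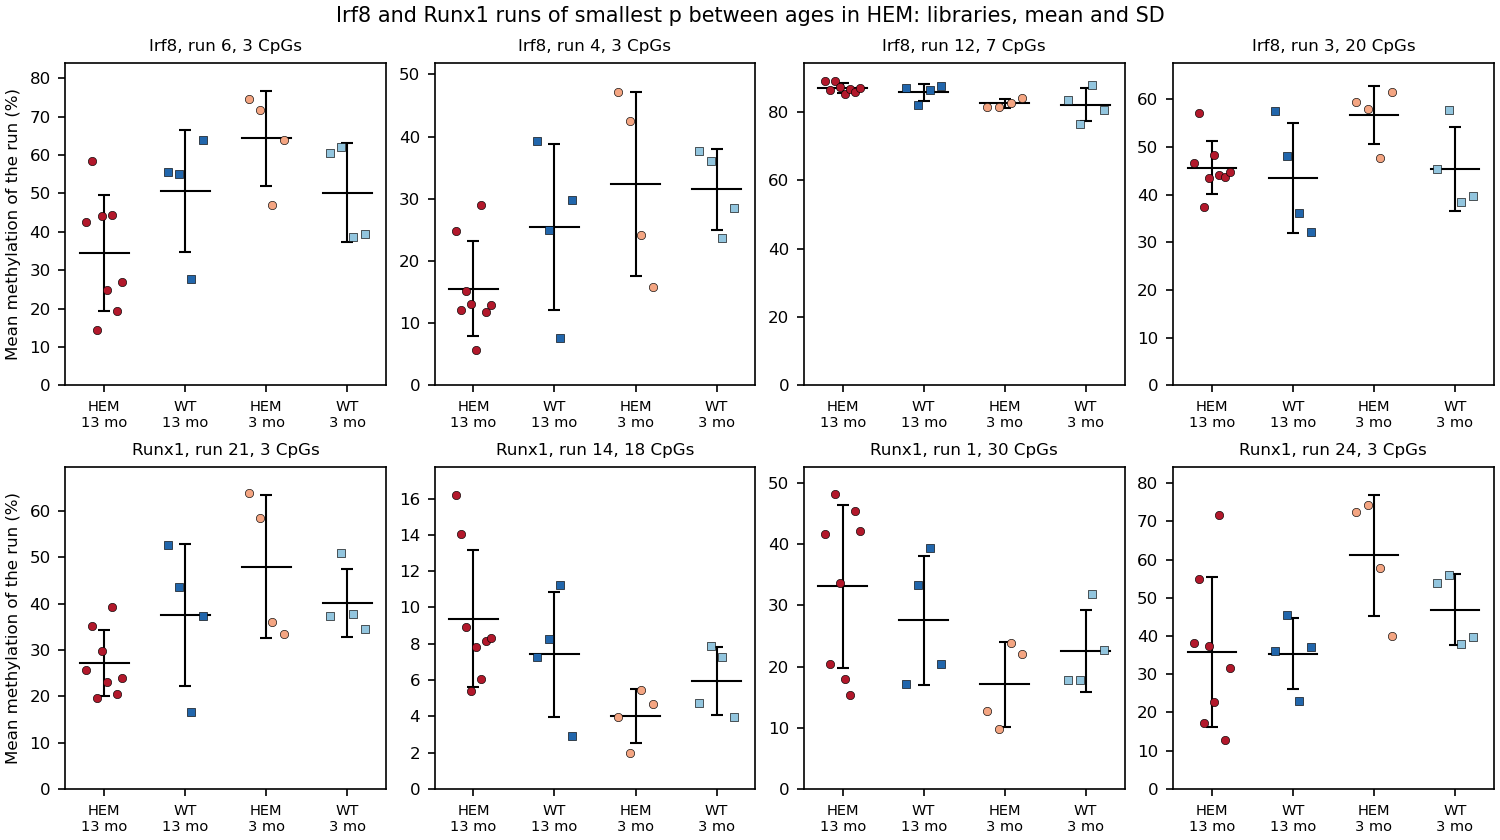
Mean methylation (percent) of 8 runs of CpGs in Irf8 and Runx1, 1 point per library with group mean and SD, for HEM and WT of 13 months and HEM and WT of 3 months. They are the 4 runs of each gene with the smallest p between ages in HEM. In run 12 of Irf8 all HEM libraries of 13 months lie above those of 3 months (mean difference 4.60 points), and in the other 7 runs they overlap.

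Of 41 member runs tested between ages in HEM 0 were called by limma, against 2 of 70875 (0.00282%). An unadjusted p under 0.05 was found for 13, where 13.7% of all runs had one, and 3 of the 13 were higher at 13 months (8.44% of all runs). In WT 0 of 41 were called, against 4 of 70796 (0.00565%), and 2 had an unadjusted p under 0.05 (5.08% genome-wide). The interaction was called in 0 of 41 runs, as in 0 of 70989 (0%), and run 6 of Irf8 alone had an unadjusted limma p under 0.05 (6.39% genome-wide). Among 40 member tiles 0 were called between ages in HEM, against 2 of 69982 (0.00286%), and 13 had an unadjusted limma p under 0.05 (13.6% genome-wide).

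**Figure D4:**
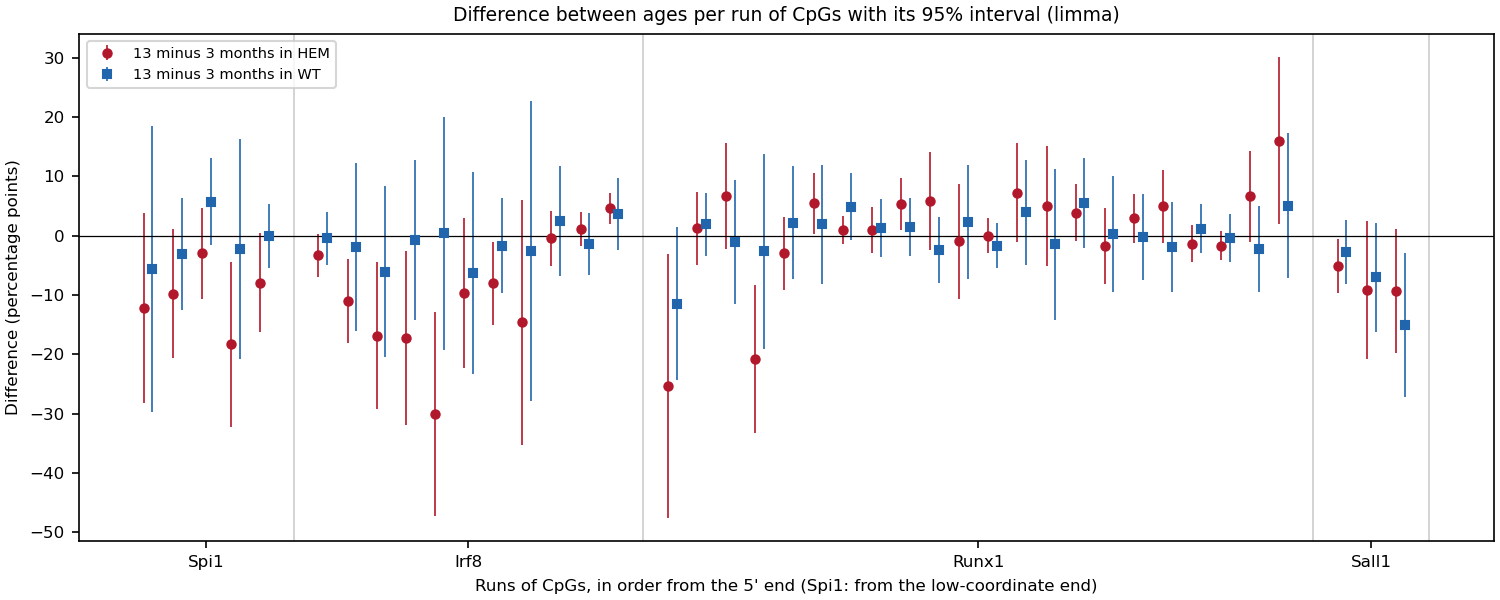
Difference in methylation (percentage points, 13 minus 3 months) of the tested runs, in HEM and in WT, each with its 95% interval from limma. Runs stand in order from the 5′ end of each gene, or from the low-coordinate end for Spi1. All 5 runs of Spi1 and 9 of 11 of Irf8 lie below 0 in HEM, 15 of 22 of Runx1 lie above it, and Mef2c has no tested run.

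Of 285 single member CpGs 0 were called between ages in HEM by limma, against 136 of 445659 (0.0305%). An unadjusted p under 0.05 was found for 77, or 27%, against 10.4% genome-wide, and 38 of the 77 were higher at 13 months (6.02% of all CpGs). Of these, 37 of 43 in Runx1 were higher at 13 months, and 21 of 22 in Irf8, all 7 in Spi1 and all 5 in Sall1 were lower. Neighbouring CpGs share reads, so these counts are not independent. The count of 77 was 46 without replicate 2 of 3 months (7.23% genome-wide) and 42 with the microglia marker mean as a covariate (6.23% genome-wide). In WT 0 of 280 were called, against 81 of 442157 (0.0183%), and 8 had an unadjusted p under 0.05, or 2.86%, against 4.79% genome-wide. That count was 17 without WT replicate 1 of 13 months, 13 without WT replicate 4 of 3 months and 5 without WT replicate 3 of 3 months. The share over all CpGs in these settings is not given here. Over all gene regions, a feature of another kind, the share at such a p was 5.04%, 5.41% and 3.83%, against 4.98% with all libraries. That share cannot stand as the background of the CpG counts. The interaction was called in 0 of 283 CpGs, against 1 of 446428 (0.000224%), and 20 had an unadjusted limma p under 0.05, or 7.07%, against 6.28% genome-wide. Without WT replicate 6 of 13 months it was 36 of 283, against 7.78% genome-wide.

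The CpGs of smallest p between ages in HEM each lay in a run. Here too the share of all CpGs without overlap was not counted. In Irf8 chr8:120739832, in run 3, lay between 27.3% and 50% (median 38.1%) at 13 months, against 72.3%, 67.6%, 47.8% and 74.4% at 3 months, with overlap (limma adjusted p = 0.286). In Runx1 chr16:92696075, in run 14, lay between 5.70% and 15.3% (median 11.1%) at 13 months, against 0%, 2.06%, 4.72% and 2.43% at 3 months, without overlap (limma adjusted p = 0.207). In Spi1 chr2:91097146, in run 4, lay between 21.3% and 50.8% (median 27%) at 13 months, against 66.7%, 88.7%, 41.9% and 41.2% at 3 months, with overlap (limma adjusted p = 0.364). This is also the Spi1 CpG with the largest range over the 20 libraries, 14.1% to 88.7%. In Sall1 chr8:89032493, in run 2, lay between 46.7% and 86.5% (median 73%) at 13 months, against 91.3%, 90.8%, 86.3% and 88.7% at 3 months, with overlap (limma adjusted p = 0.327).

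Between ages in WT the CpG of smallest p overlapped in Spi1, Irf8 and Runx1. In Spi1 chr2:91089879 stood at 71%, 97.1%, 76.3% and 91.3% at 13 months, against 88%, 62.5%, 63.6% and 68% at 3 months. In Irf8 chr8:120753208, the CpG already named for 13 months, stood at 95.5%, 100%, 100% and 100% at 13 months, against 91.8%, 96.3%, 95.7% and 60.0% at 3 months. In Runx1 chr16:92744923 stood at 97.6%, 100%, 100% and 92.2% at 13 months, against 89.8%, 91.8%, 91.9% and 94.6% at 3 months. The limma adjusted p of all 3 was 0.975. The largest range over the 20 libraries in Irf8 was that of chr8:120744365 in run 5, from 11.3% in a HEM library of 13 months to 83.5% in one of 3 months. In Runx1 it was that of chr16:92605783 in run 1, between 73.8% in a HEM library of 13 months and 3.55% in one of 3 months. In Mef2c it reached no more than 10%, at chr13:83523524.

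One Sall1 CpG stood apart from its neighbours. At chr8:89030610 the 20 libraries fell into 3 bands, with 6 between 0% and 4.07%, 10 between 45.5% and 67.7% and 4 between 80.8% and 98.1%. At 13 months it lay between 0% and 80.8% (median 50.2%) in HEM, against 2.54%, 45.5%, 0% and 0% in WT. At 3 months it stood at 90.5%, 67%, 59.2% and 67.7% in HEM, against 51.7%, 98.1%, 94% and 54.3% in WT, so none of the lowest band was of that age. Its difference between 13 and 3 months in WT was -62.6 points (limma adjusted p = 0.821). Run 1 of Sall1, which holds it, averaged 66.9 ± 8.74% at 13 months and 81.9 ± 8.63% at 3 months in WT, a difference of -15.1 points (exact permutation p = 0.0857). Without that CpG the other 4 averaged 80.6 ± 5.79% at 13 months and 83.8 ± 5.41% at 3 months, a difference of -3.19 points (exact permutation p = 0.429, SD over 4 libraries each).

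Spi1 and Irf8 varied between libraries far more than most gene regions of at least as many CpGs, which were not matched on methylation level. Spi1 averaged 49.2% and Irf8 40.3% over the 20 libraries, whereas regions near 0% have little room to vary. The SD of Spi1 over the 20 libraries was 9.09 points, higher than in 99.9% of the 15012 regions with at least as many CpGs, whose median SD was 0.638. Irf8 had an SD of 3.97 points, higher than in 99.6% of 2010 regions, and Runx1 one of 2.01, higher than in 90.5% of 148. Sall1, at 0.807, and Mef2c, at 0.419, exceeded 38.7% and 36.3% of such regions. Within the 4 groups the pooled SD was still 8.64 points for Spi1 and 3.57 for Irf8, so most of the spread lay inside groups.

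That spread ran along with the methylation of other microglia genes. The mean over 8 measured regions of 13 listed microglia markers lay between 46.2% and 58.4% in HEM and between 48.8% and 59.3% in WT at 13 months. At 3 months it lay between 52.9% and 60.1% in HEM and between 53.7% and 58% in WT. Over the 20 libraries the Pearson r with this mean was 0.939 for Spi1, 0.914 for Irf8, 0.779 for Sall1, -0.597 for Runx1 and -0.198 for Mef2c. Spearman's rho was 0.884, 0.878, 0.780, -0.556 and 0.232 in the same order. The permutation p of r was 1e-05 for Spi1 and Irf8, the smallest that 100000 permutations give, 9e-05 for Sall1, 0.00598 for Runx1 and 0.418 for Mef2c. That of rho was 1e-05, 1e-05, 9e-05, 0.0120 and 0.323. Adjusted over 30 relations, 5 genes by 6 marker lists, the permutation p of r was 5e-05 for Spi1 and Irf8, 0.000386 for Sall1, 0.0124 for Runx1 and 0.523 for Mef2c. Without the 2 libraries farthest from the median marker mean r was 0.927, 0.885, 0.630, -0.428 and 0.164.

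Within the 12 libraries of 13 months r was 0.960 for Spi1, 0.954 for Irf8, 0.764 for Sall1, -0.528 for Runx1 and -0.291 for Mef2c. Within the 8 libraries of 3 months it was 0.850, 0.757, 0.631, -0.424 and 0.779. Spi1, Irf8 and Sall1 passed an adjusted permutation p of 0.05 at 13 months, and none of the 5 did at 3 months by the exact permutation test over 8 libraries (lowest adjusted p 0.0820). Between ages in HEM the marker mean was 52 ± 4.59% at 13 months and 56 ± 3.63% at 3 months (exact permutation p = 0.172). With it as a covariate the median difference of the 4 tested members between ages in HEM was -1.30 points, against -3.18 without it. That median joins genes that went in both directions. Without the covariate they differed by -11.1 points (Spi1), -5.72 (Irf8), -0.650 (Sall1) and 2.63 (Runx1). The part of the marker mean in these differences was not tested.

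**Figure D5:**
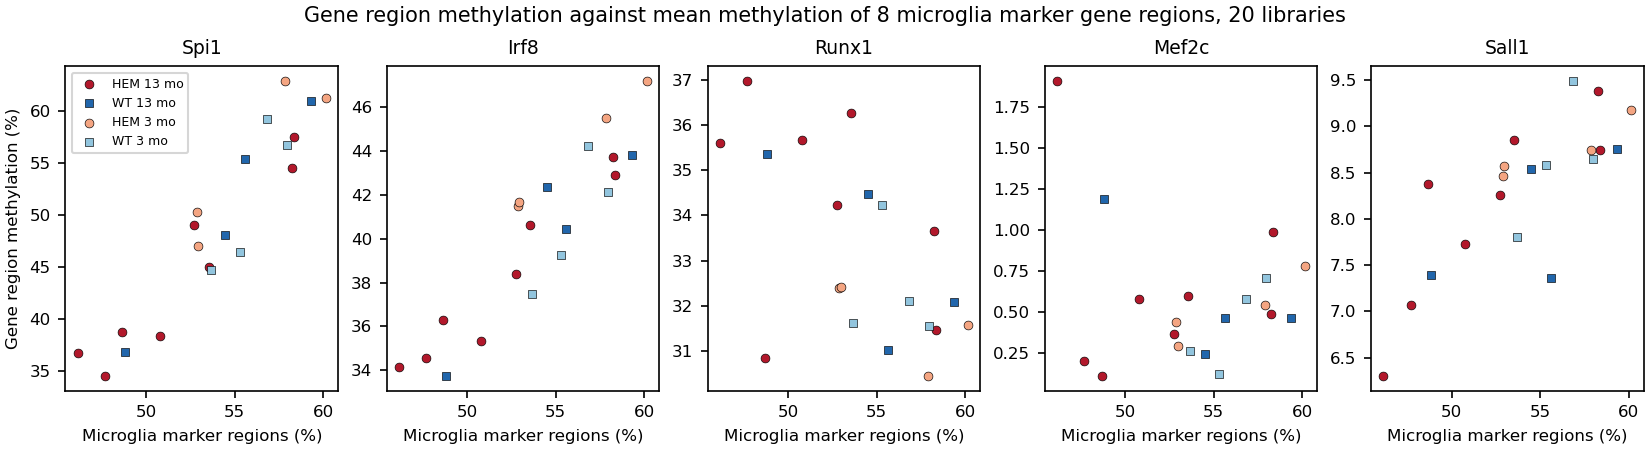
Mean methylation (percent) of each gene region against the mean of 8 microglia marker gene regions (percent), 1 point per library, coloured by group. Spi1 and Irf8 run upward with the marker mean (r 0.939 and 0.914), Sall1 more loosely (0.779), and Runx1 runs downward (-0.597). Mef2c shows no order over the 20 libraries (-0.198), while its r was 0.779 within the 8 libraries of 3 months.

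Runx1 went with the marker regions of other cell types. Its r was 0.910 with the neuron list (rho 0.759), 0.850 with the oligodendrocyte list (rho 0.848) and 0.736 with the endothelium and pericyte list (rho 0.722), over 20 libraries. The adjusted permutation p of r was 5e-05, 5e-05 and 0.000412, and that of rho 0.000729, 0.000120 and 0.00157. Without the 2 libraries farthest from the median of each list r was 0.862, 0.866 and 0.663. Within the 12 libraries of 13 months r was 0.910, 0.841 and 0.706, and all 3 passed an adjusted permutation p of 0.05. Within the 8 libraries of 3 months r was 0.725, 0.827 and 0.647 and none passed an adjusted p of 0.05 by the exact permutation test. At that age rho was 0.143, 0.833 and -0.0952, and r without the 2 farthest libraries -0.286, 0.619 and -0.397, so that the relations with neurons and with endothelium and pericytes rested on those 2 at 3 months. Between ages in HEM the neuron list, like Runx1, was higher at 13 months, at 16.8 ± 0.736%, than at 3 months, at 15.8 ± 0.133% (exact permutation p = 0.0202, not adjusted over lists), and its part in the Runx1 difference was not tested. Spi1 and Irf8 ran against the neuron list, at r -0.690 and -0.640 (rho -0.648 and -0.623, adjusted permutation p of r 0.00321 and 0.00627). They ran against the oligodendrocyte list too, at r -0.701 and -0.643 (adjusted permutation p of r 0.00297 and 0.00630). Sall1 had r -0.533 with the neuron list and -0.582 with the oligodendrocyte list (adjusted permutation p of r 0.0274 and 0.0124, of rho 0.0651 and 0.0181). Spi1 and Irf8 ran with the list of border macrophages and leukocytes as well as with the microglia list, at r 0.886 and 0.880 over the 20 libraries. Within the 8 libraries of 3 months r with that list was 0.930 and 0.956, and both passed there (adjusted exact permutation p 0.00446 and 0.00632), unlike the microglia list. Spi1 and Irf8 themselves correlated at r 0.932 over the 20 libraries, given as a description. Mef2c ran against the oligodendrocyte list within the 8 libraries of 3 months, at r -0.918 (adjusted exact permutation p 0.0141). The rho was -0.881 there (adjusted exact permutation p 0.0724), and r over the 20 libraries was 0.124. Mef2c lay between 0.122% and 0.781% at that age.

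Runx1 was not uniform in this respect. Of its 24 runs, 5 correlated positively and 8 negatively with the microglia marker mean at an adjusted permutation p under 0.05 over 49 runs. Among the positive ones were run 21 (r 0.854), run 24 near the distal start (r 0.832) and run 3 (r 0.822). Among the negative ones were run 10 (r -0.853), run 1 (r -0.764) and run 2 (r -0.725). Runs 21 and 24, lower at 13 months in HEM, thus ran with the markers, and run 1, higher at 13 months in HEM, ran against them. In Spi1 4 of 5 runs, in Irf8 9 of 12 and in Sall1 3 of 6 passed, all positively, and in Mef2c 0 of 2. The unmethylated start runs of Irf8 (r -0.0202) and of Runx1 (r 0.305) did not pass. Within the 12 libraries of 13 months 17 runs passed positively and 4 negatively, and within the 8 of 3 months 0 of 49 did.

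Gene regions with the pattern most like each member over the 20 libraries were looked for among 11705 to 11706 regions. For Spi1 they were the non-coding genes Gm40106 and Gm12474, which share 21 CpGs (r 0.972), and Csf1r, the receptor for the growth factor on which microglia depend and itself one of the markers (r 0.962). For Irf8 they were Mboat1 (r 0.955), C1qa, a subunit of complement C1q (r 0.951), and Kpna6, an importin (r 0.949). For Runx1 they were 1810013A23Rik (r 0.960), Src, a tyrosine kinase (r 0.958), and Sema7a, a semaphorin (r 0.953). For Mef2c they were Tmem47 (r 0.856) and Gm11413 and Gm11184, with the same 5 CpGs (r 0.714). For Sall1 they were Ctss, a lysosomal cysteine protease (r 0.893), Zfyve19 (r 0.875) and Slc3a2, a subunit of amino acid transporters (r 0.872). These are the highest of many correlations and carry no test.

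Relatives and partners of the 5 factors were read in the same fits. Of 19 genes of the same families 15 were tested in each comparison, and limma called 0 in any of them. At 13 months 2 of the 15 had an unadjusted p under 0.05 (4.05% of all regions). One was Mef2b, a paralogue of Mef2c, at 21.7% in HEM and 28.2% in WT (difference -6.49 points, limma adjusted p = 1). The other was Irf9, which carries interferon signals, at 22% in HEM and 24.2% in WT. At 3 months 0 of 15 had one. Of 30 partner and signal genes of the lineage 17 were tested in both genotype comparisons, with 0 called by limma and 0 at an unadjusted p under 0.05. The smallest p at 13 months belonged to Tgfb1, a cytokine that maintains microglia, at 19% in HEM and 17.4% in WT, and to its receptor gene Tgfbr2, at 11.5% in HEM and 12.9% in WT. Between ages in HEM 3 of 15 family genes and 7 of 17 partner genes had an unadjusted limma p under 0.05, where 12.9% of all regions did, and 0 were called. The median HEM minus WT difference of the tested family genes was -0.315 points at 13 months and 0.0418 at 3 months, beside -0.0187 and -0.0500 over all regions.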

How the data were processed

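The authors deposited percent methylation at each CpG position for each of 20 libraries. The submitters' processing notes name Bowtie2, methylKit and mm10, and versions and read filters are not given in the sources used here. Without read counts, limma 3.58.1 (R 4.3.3) was run on log2((percent + 1) / (100 - percent + 1)) over whole tables, with p-values adjusted by Benjamini and Hochberg over all features tested. Features were CpGs, gene regions, tiles of 1000 bp and, added after the data were seen, runs of CpGs; all but single CpGs had at least 3 CpGs, and all had a mean of 5% to 95%. The 2 strands of a CpG can be listed as adjacent positions, which were counted apart. Differences and 95% intervals come from limma on untransformed percent. A genotype or age call needed 5 points (10 for CpGs) besides an adjusted p under 0.05.

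Groups came from the labels, and a pairwise comparison used only its own libraries. Single gene and run means were compared by two-sided exact permutation tests, and correlations by 100000 permutations, or all orders for 8 libraries. The members and lists were chosen with earlier results of these data known. CpGs named have the smallest p in a comparison or the largest range, and the genes named for likeness are the 3 of highest r among regions with at least 5 CpGs and an SD of at least 1 point. Tested on simulated data, shifts of 10 points in 200 of 19455 gene regions at 13 months were recovered in 65%, and shifts of 5 points in 200 of 19453 in 22%. The shifted regions were drawn at random from those of middle methylation, each with its own SD. Spi1 and Irf8 varied more than nearly all regions (SD 9.09 and 3.97 points), and Sall1 and Mef2c lay below the levels drawn from. These shares therefore do not give the power for the 5 genes. In tables of the whole series 1 value column equals no library and was not used.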

Additional observations from a re-analysis of the deposited data

Results flagged for a closer look

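In 10 of 216 sets of values, 4.63%, 1 library stood far from the rest of its group, where chance does so in about 1 of 20. In HEM of 13 months these were run 3 of Spi1 in replicate 8 (74.9%, nearest other 86.1%), run 5 of Sall1 in replicate 13 (0.688%, nearest other 0.960%) and run 15 of Runx1 in replicate 7 (0.493%, nearest other 0.421%). In WT of 13 months they were run 11 of Irf8 in replicate 1 (86.1%, nearest other 93.6%) and run 2 of Runx1 in replicate 6 (74.4%, nearest other 66.5%). In HEM of 3 months they were run 10 of Runx1 in replicate 7 (74.6%, nearest other 61.2%) and run 15 of Runx1 in replicate 1 (0.793%, nearest other 0.352%). In WT of 3 months they were run 15 of Runx1 in replicate 3 (0.969%, nearest other 0.459%), run 16 of Runx1 in replicate 4 (3.90%, nearest other 1.85%) and run 1 of Mef2c in replicate 1 (0.509%, nearest other 0.139%). The run over the proximal start of Runx1 appears in 3 of the 4 groups, at under 1% throughout.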

How the results depend on the processing

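The number of called members was 0 in all 221 alternative counts over gene regions, CpGs, tiles and runs: untransformed percent, another offset, no filter on the mean, averaged strands, other region or tile sizes, another variance model, no minimum difference, 1 fit of all libraries, the marker mean as a covariate, pairing by number and single libraries left out. Differences that were not called could change sign, and the cause was not tested. With the marker mean as a covariate these were Irf8 between HEM and WT at 13 months (0.324 points), Spi1 and Irf8 between ages in WT (2.05 and 0.728), Sall1 between ages in HEM (0.00335) the interaction of Sall1 (0.368) and Mef2c at 13 months (-0.0187). With the replicate block they were Spi1, Sall1 and Runx1 at 3 months (-2.55, -0.179 and 0.153), Sall1 between ages in HEM (0.0905) the interaction of Sall1 (0.465), and Mef2c at 13 months (-0.317), at 3 months (-0.0831) and between ages in HEM (-0.0232). The block compares only libraries whose number occurs in both groups. These numbers were 1, 6 and 7 at 13 months, 1 and 3 at 3 months, and 1, 3 and 7 between ages in HEM. The interaction joins those of both genotype comparisons. All other libraries do not bear on the differences with the block. With the block 19 member CpGs had an unadjusted limma p under 0.05 at 13 months and 10 at 3 months. Between ages in HEM 15 had one, and 13 did for the interaction, while 0 member regions did between ages in HEM. The block also moved the share of all gene regions at such a p, to 9.62% at 13 months from 4.05%. At 3 months it was 4.88% (4.03% without the block), between ages in HEM 7.38% (12.9%) and for the interaction 5.39% (5.18%). The share of all CpGs with the block is not given here, so the member CpG counts lack a background and nothing is drawn from them. The labels give a number and do not say whether libraries of the same number belong together. Their deviations correlated between -0.300 and 0.382, which cannot decide it. The replicate block could not be fitted between ages in WT.

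With 1 library left out, differences ranged from -0.311 to 4.83 points for Spi1 at 3 months, from -5.00 to 3.04 for Spi1 and -1.93 to 1.42 for Irf8 between ages in WT, and for Sall1 from -0.141 to 0.331 at 13 months, -0.0964 to 0.454 at 3 months and -0.321 to 0.241 for the interaction. Mef2c turned sign in all 5, from -0.114 to 0.265 at 13 months, -0.0393 to 0.135 at 3 months, -0.0389 to 0.230 and -0.0282 to 0.287 between ages in HEM and in WT, and -0.210 to 0.169 for the interaction. At 13 months Spi1 kept its sign from -10.5 to -2.49, Irf8 from -3.95 to -0.597 and Runx1 from 0.368 to 1.80. The Irf8 age difference in HEM ranged from -6.53 to -4.64 points, with an exact permutation p of 0.0182 to 0.0909. Without replicate 3 of 13 months, which has no strain label, it was -6.50 points. The correlation with the marker mean no longer passed within the 8 libraries of 3 months for Spi1 (0.850), Irf8 (0.757), Sall1 (0.631) and Runx1 (-0.424), nor within the 12 of 13 months for Runx1 (-0.528), and that of Mef2c was 0.779 at 3 months, against -0.198 over all. Depth is unknown, and CpGs averaging under 5% were not tested.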

Other observations

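The run of 61 CpGs over the middle start of Sall1 (chr8:89043242-89044053), below the lower limit on the mean and picked out after its values were seen, stood between 0.688% and 1.19% (median 0.989%) in HEM, against 0.851%, 0.452%, 0.829% and 0.497% in WT at 13 months, with overlap. At 3 months it stood at 0.747%, 0.415%, 0.622% and 0.730% in HEM, against 0.478%, 0.595%, 0.423% and 0.746% in WT. The difference of 0.353 points at 13 months had a two-sided exact permutation p of 0.0121, among 49 runs looked at, and all values were near 1% or less. The neighbouring start run of 104 CpGs averaged 1.06 ± 0.357% in HEM and 1.23 ± 0.336% in WT at 13 months (SD over 8 and 4 libraries).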
